A study of Homo sapiens with 4 samples.

Results

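The genes described here are 10 chemokine genes: CXCL1, CXCL2, CXCL3, CXCL5, CXCL6, CXCL8, CCL2, CCL5, CCL20 and CXCL13. They were taken by name from the 60279 genes in the count tables, as secreted chemokines of the senescence secretome together with CXCL13, which went the other way. The genes were chosen by their CPM (the read count relative to the total of gene reads in the library) in these same 4 libraries, so their levels and ratios are a description and support nothing by themselves. Of the 10 genes, 8 had a mean of at least 1 CPM and entered the comparisons, and CXCL5 and CXCL6 did not. A gene near 0 reads in one library can reach that mean only through the libraries in which it was high, which was so for CCL2 and CCL20 and in reverse for CXCL13.

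Chemokines are small secreted proteins that direct the movement of leukocytes along a gradient by binding receptors on their surface. CXCL1, CXCL2, CXCL3, CXCL5, CXCL6 and CXCL8 carry the ELR motif (glutamate, leucine, arginine). They attract neutrophils mainly through CXCR2 and, for some of them, also through CXCR1. CCL2 attracts monocytes through CCR2, CCL5 attracts T cells and monocytes, CCL20 acts on CCR6 and CXCL13 attracts B cells to lymphoid follicles through CXCR5. Many of these genes are textbook targets of the transcription factor NF-κB and are known parts of the senescence-associated secretory phenotype, the set of proteins that senescent cells release.

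RNA sequencing was performed on SUM159, an established triple-negative breast cancer line, with 1 library each for untreated cells, cells given palbociclib, cells given indisulam and cells given both drugs (combination). Palbociclib is an inhibitor of CDK4 and CDK6, kinases that drive entry into the cell cycle. Indisulam is a molecular glue through which the ligase receptor DCAF15 captures RBM39, a splicing factor, for degradation. According to the sample labels palbociclib was given at 0.5 µM and indisulam at 2 µM over 10 days, whereas the description of the whole series gives 2 µM and 3 µM over 16 h in technical duplicates. Both regimens occur in the paper, the first in its work on senescence and the second in its work on splicing, and the groups here follow the labels. Whether duplicates were pooled was not stated. All 4 groups were cultured in DMEM/F12 medium with serum, insulin and hydrocortisone, a glucocorticoid.

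Gene reads per library ranged from 12555908 to 16712174. With 1 library per condition, no difference below has a replicate check, no p-value was computed, and a difference between cultures or batches cannot be told apart from a drug effect. Brackets hold 95% intervals from counting error only. Markers of the line were present, with VIM between 2642 and 4598 CPM and CD44 between 706 and 883 CPM, while the hormone receptor genes ESR1 and PGR had at most 16 and 3 reads. Of 12 blood cell marker genes, 1 of them erythroid and the rest of leukocytes, 7 had no more than 3 reads in any library, and CD3E, MS4A1 and FCGR3B were at 0 in all. The whole list summed to 26.0, 45.3, 26.4 and 42.1 CPM in the untreated, palbociclib, indisulam and combination libraries, mostly PTPRC, CD14, S100A8 and S100A9, and its part in the chemokine levels was not tested. Of 7 markers of lymphoid follicles, 5 had no more than 3 reads anywhere, and the sums of 149, 77.8, 143 and 56.5 CPM were almost wholly BCL6. Of the receptors named above, CXCR1 and CCR6 had 0 reads in all 4 libraries, CXCR2 and CCR2 had at most 1 read and CXCR5 at most 2. CCR1, another receptor of CCL5, had 10, 8, 65 and 48 reads, and the atypical receptor ACKR1 was well expressed at 1600, 1909, 1025 and 462 reads.

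Of the 10 genes, 8 had an entry among the RefSeq promoter windows on GRCh38.p14, each holding 250 bases before and 50 bases after a transcription start, and CXCL13 had 2 starts. The stretch from base 120 to base 61 before the start is printed for these genes, 5′ to 3′ on the strand of the gene, because the ELR chemokine genes share a short run of letters there that the CCL20 and CXCL13 windows lack. Capitals mark each match to GGAATTTCC, a core form of the site that NF-κB is known to bind. Forms of the site that do not contain these exact letters were not searched for, so a window without capitals may still hold one.
CXCL1: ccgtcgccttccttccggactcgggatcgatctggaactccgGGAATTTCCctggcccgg
CXCL2: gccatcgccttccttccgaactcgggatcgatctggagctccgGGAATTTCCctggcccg
CXCL3: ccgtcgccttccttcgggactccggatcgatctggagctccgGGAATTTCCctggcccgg
CXCL5: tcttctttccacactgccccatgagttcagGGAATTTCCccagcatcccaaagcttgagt
CXCL6: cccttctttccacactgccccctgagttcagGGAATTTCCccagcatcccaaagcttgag
CXCL8: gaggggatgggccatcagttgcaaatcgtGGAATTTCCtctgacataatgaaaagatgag
CCL20: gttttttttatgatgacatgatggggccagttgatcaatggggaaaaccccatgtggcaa
CXCL13 upstream start: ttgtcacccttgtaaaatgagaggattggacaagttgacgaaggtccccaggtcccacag
CXCL13 downstream start: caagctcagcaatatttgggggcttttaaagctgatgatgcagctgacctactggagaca

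The windows of CXCL1 (chr4:73869273-73869332), CXCL6 (chr4:73836558-73836617) and CXCL8 (chr4:73740449-73740508) are on the plus strand. Those of CXCL2 (chr4:74099256-74099315), CXCL3 (chr4:74038750-74038809) and CXCL5 (chr4:73998738-73998797) are on the minus strand. CCL20 (chr2:227813722-227813781) and both CXCL13 windows (chr4:77511633-77511692 and chr4:77605700-77605759) are on the plus strand, and the CCL20 window and the downstream CXCL13 window lie inside longer forms of these genes. Nearly all of the CXCL3 window lies within an exon of another CXCL3 transcript in GENCODE, and the CXCL5 window within an exon of a long noncoding RNA gene on the opposite strand.

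GGAATTTCC, read on both strands over the whole window, was found in 6 of the 8 genes, which were the 6 ELR chemokine genes. Its first base lay 78 bases before the start in CXCL1 and CXCL3, 77 in CXCL2, 90 in CXCL5, 89 in CXCL6 and 91 in CXCL8, on the strand of the gene in each. Of 35116 promoter windows in the table, 0.461% held it. The longer GGGAATTTCC, which contains it, was found in 5 genes, all of those with the shorter form except CXCL8, and in 0.145% of all windows. The AP-1 letters TGANTCA were found in CXCL8, 137 bases before the start, and in 7.71% of all windows. The C/EBP letters TTGCNNAA were found in CXCL2 on the opposite strand, 188 bases before the start, and in 10.5% of all windows. Neither overlapped the NF-κB letters. AP-1 and C/EBP sites with other letters were not searched for, so a gene without a match here may still hold one. The windows are also alike outside the match. Over the whole window CXCL1 and CXCL3 were 82.5% identical and CXCL5 and CXCL6 83.1%, whereas CXCL8 was between 45.2% and 48.0% identical to the others.

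**Figure D1:**
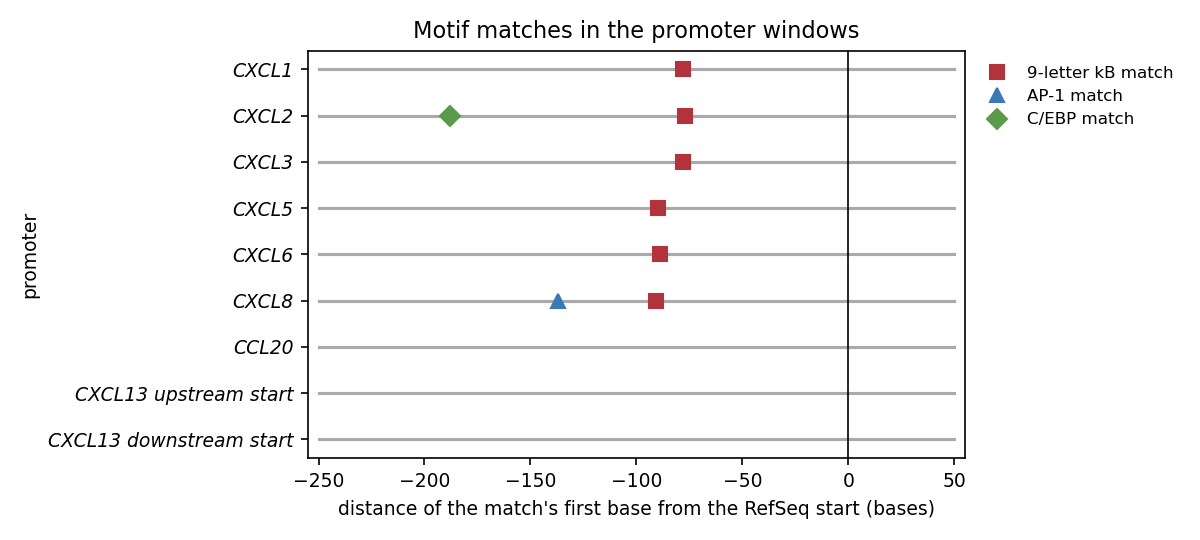
Each grey line is 1 promoter window, with the position in bases from the RefSeq start on the x axis and 0 at the start. Red squares are matches to the 9-letter NF-κB form (6 of 8 genes, 77 to 91 bases before the start), the blue triangle is the AP-1 match in CXCL8, the green diamond is the C/EBP match in CXCL2, and the lines of CCL20 and CXCL13 hold none.

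All 6 ELR genes lie within 358.678 kb of chromosome 4 (73740519 to 74099196), among 16 genes of the tables, and fall into 4 genes with between 292 and 6620 reads under indisulam and 2 genes that stayed near 0. CXCL8 (chr4:73740519-73743716, plus strand), the prototype neutrophil chemokine, had 113 reads without treatment, 218 under palbociclib, 6620 under indisulam and 5281 under the combination. As CPM these are 9.0, 17.2, 396 and 368. Both libraries that contained indisulam were thus far above both that did not.

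CXCL1 (chr4:73869393-73871308, plus strand) had 13 reads in untreated cells, 29 under palbociclib, 762 under indisulam and 1246 under the combination, or 1.04, 2.29, 45.6 and 86.8 CPM. Of the ELR genes it had the largest step between indisulam and the combination. Its 4 levels rank in the order untreated, palbociclib, indisulam, combination, as do those of CXCL2, CXCL3 and CCL5 given below. CXCL2 (chr4:74097040-74099196, minus strand) had 103, 120, 442 and 451 reads, in the order of libraries used throughout, or 8.20, 9.46, 26.4 and 31.4 CPM. Of the trio CXCL1, CXCL2 and CXCL3, CXCL2 differed least between the libraries. CXCL3 (chr4:74036589-74038807, minus strand) had 16, 26, 292 and 257 reads, or 1.27, 2.05, 17.5 and 17.9 CPM.

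CXCL5 (chr4:73995642-73998677, minus strand) had 1 read in the indisulam library and 0 in the others. CXCL6 (chr4:73836640-73849064, plus strand) had 1 read with indisulam and 2 with the combination. Both genes carry the same 9 letters before their start as the expressed copies, and the part of these letters in the levels was not tested. Neither gene passed 3 reads in any library, which corresponds to between 0.1795 and 0.239 CPM. A fold is therefore not given for either. Of the other chemokine genes of the same stretch, PF4 and PF4V1 had 0 reads in every library and PPBP 1 read with the combination.

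Outside this cluster, CCL5 (chr17:35871491-35880793, minus strand), a T cell and monocyte attractant, was already expressed in untreated cells. It had 600, 865, 3287 and 3232 reads, or 47.8, 68.2, 197 and 225 CPM. CCL20 (chr2:227805739-227817564, plus strand) had 4, 2, 148 and 101 reads, or 0.319, 0.158, 8.86 and 7.03 CPM. Like CXCL1, CXCL2, CXCL3 and CXCL8, CCL20 was thus higher in both libraries with indisulam than in both without. It was near the floor of 3 reads without indisulam and between 7 and 9 CPM with it.

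CCL2 (chr17:34255274-34257208, plus strand), the monocyte attractant, had another pattern. It had 1 read without treatment, 10 under palbociclib and 6 under indisulam, but 129 under the combination, or 0.0796, 0.788, 0.359 and 8.98 CPM. It was near the floor of detection in the 3 other libraries and well above it only in the combination.

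CXCL13 (chr4:77511753-77611834, plus strand), the B cell attractant, went the other way. It had 169 reads without treatment, 268 under palbociclib, 8 under indisulam and 3 under the combination, or 13.5, 21.1, 0.479 and 0.209 CPM. It lies 3.41 Mb from the ELR cluster on the same chromosome.

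**Figure D2:**
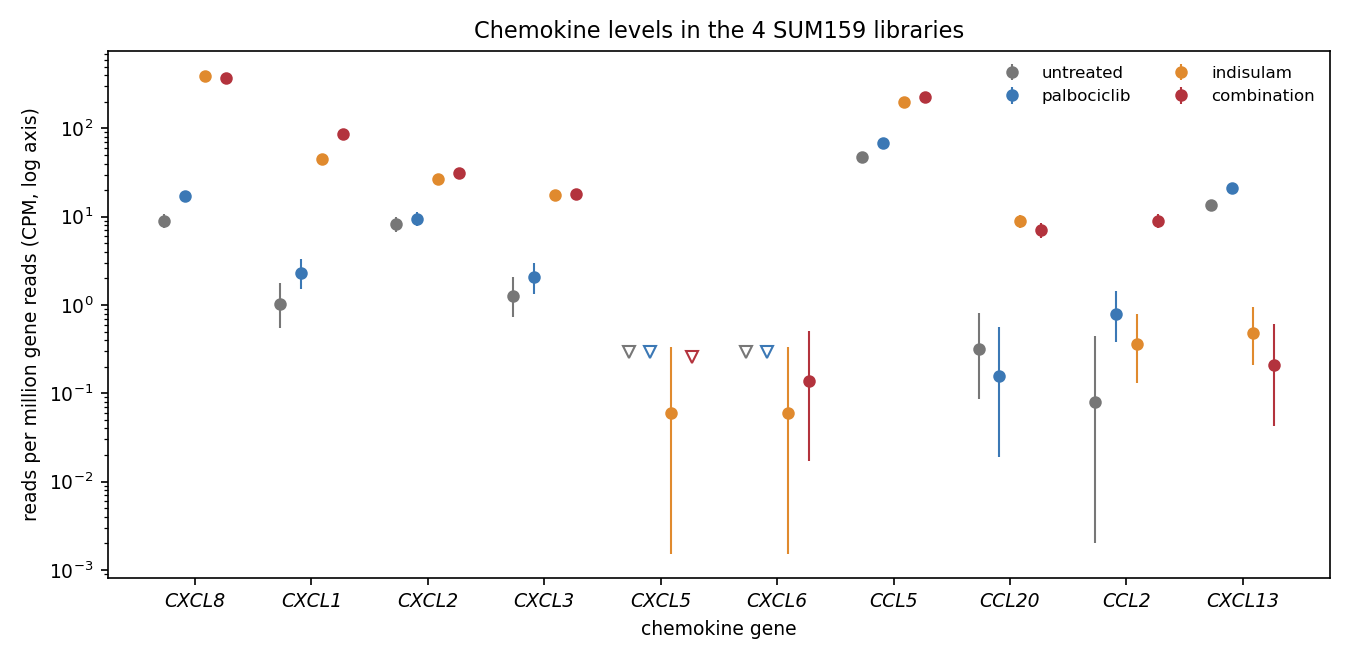
Each point is the level of a chemokine gene in 1 library, in CPM on a log axis, with its exact 95% counting interval; open triangles mark the upper end of that interval where 0 reads were found. In CXCL8, CXCL1, CXCL2, CXCL3, CCL5 and CCL20 the indisulam (orange) and combination (red) points lie above the other 2, CCL2 is high only in the combination, CXCL13 is reversed, and CXCL5 and CXCL6 stay at 0 to 2 reads.

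Levels were compared between genes only per kilobase of exon (RPKM), with the exon length taken as the union of all annotated exons, which in CXCL3 and CCL2 covers the whole gene. In the untreated library the order was CCL5 (35.03 RPKM), CXCL13 (9.38), CXCL2 (5.87) and CXCL8 (3.48), followed by CXCL1, CXCL3, CCL20 and CCL2, all under 1 RPKM. With palbociclib the first 4 places were the same, at 49.97, 14.7, 6.76 and 6.64 RPKM, and CXCL2 and CXCL8 there differed by less than their counting error, or stood in the other order, at 8.48 and 10.5 RPKM, per kilobase of the main transcript. With indisulam CXCL8 (153 RPKM) was ahead of CCL5 (144 RPKM), then came CXCL1 (33.5 RPKM) and CXCL2 (18.9 RPKM). In the combination CCL5 had 165 RPKM, CXCL8 142 RPKM and CXCL1 63.7 RPKM. The order of CCL5 and CXCL8 there depends on the length used, since per kilobase of the main transcript CXCL8 (224 RPKM) was ahead of CCL5 (173 RPKM). Among all tested genes ranked per length in the same library, CXCL8 stood at the percentile 42.9 in untreated cells and at 98.8 with indisulam. CXCL1 stood at the percentile 15.0 in untreated cells and 96.5 in the combination, and CXCL13 at 70.2 and 1.81.

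The make-up of the chemokine reads differed between the libraries. Together the 10 genes had 1019, 1538, 11567 and 10702 reads, or 81.2, 121, 692 and 745 CPM. CCL5 took 58.9% [55.8 to 61.9] of them in untreated cells and 28.4% [27.6 to 29.2] with indisulam. CXCL8 took 11.1% [9.23 to 13.2] in untreated cells, 57.2% [56.3 to 58.1] with indisulam and 49.3% [48.4 to 50.3] with the combination. CCL5 thus held the largest share of the reads without indisulam and CXCL8 with it, where a share of reads depends on gene length as well as level. CXCL13 made up 16.6% [14.4 to 19.0] of the reads in untreated cells and 0.0280% [0.00578 to 0.0819] in the combination. CXCL1 had 1.28% [0.681 to 2.17] in untreated cells, 6.59% [6.14 to 7.06] with indisulam and 11.6% [11.04 to 12.3] with the combination.

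**Figure D3:**
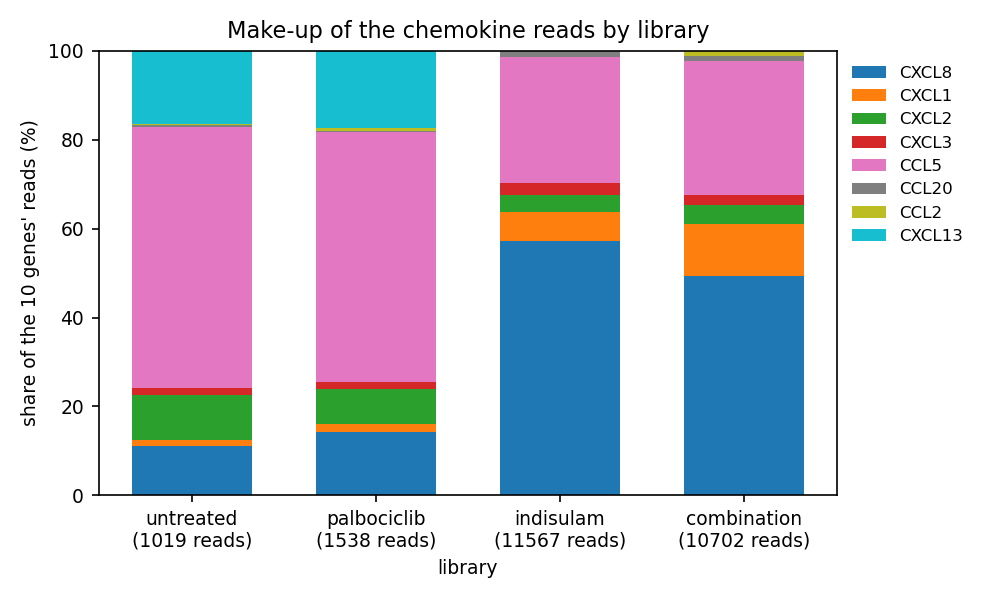
Each bar is 1 library and shows the share of each gene in the reads of the 10 chemokine genes, in percent, with the number of reads below it. CCL5 (pink) and CXCL13 (cyan) fill most of the bars of the untreated and palbociclib libraries, and CXCL8 (dark blue) is the largest part of the indisulam and combination bars at 57.2% and 49.3%.

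Ratios were taken on the log2 scale of scaled counts (reads adjusted to the mean library total) with a pseudocount of 1, which understates the change of low genes. A call of higher or lower needed a ratio of 2-fold or more and a counting interval that excluded 1. For palbociclib alone, 2 of the 8 genes were called higher and none lower, in a comparison where 10.7% of the 14269 tested genes were called (5.85% higher and 4.89% lower). CXCL1 was higher by 1.09 [0.17 to 2.01] on the log2 scale and CCL2 by 2.51 [0.28 to 4.74], the second from 1 read against 10, an exact ratio of 9.89 [1.41 to 429]. CXCL8 was just short of the call at 0.93 [0.60 to 1.25], and CXCL13 was not called at 0.65 [0.37 to 0.92]. CCL5 had a ratio of 0.51 [0.36 to 0.66] and CXCL3 of 0.66 [-0.22 to 1.53]. CXCL2 and CCL20 had intervals that included no difference.

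A bound on the noise between libraries was taken from the spread over genes of the departure from additivity, in which noise from all 4 libraries adds to whatever the drugs do jointly. It is 1 robust standard deviation over genes of like level, so it describes the typical gene. It is not a significance limit, a single gene can vary more, and differences shared by a pair of libraries can cancel in it. For a single ratio it was 0.62 on the log2 scale for genes of 1 to 5 CPM, 0.37 at 5 to 20 CPM, 0.26 at 20 to 100 CPM and 0.28 above. At the levels of the untreated and palbociclib libraries, the ratio of CXCL8 was thus more than 2 times its bound of 0.37, and that of CCL5 less than 2 times its bound of 0.26.

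For indisulam alone, 6 genes were called higher (CXCL1, CXCL2, CXCL3, CXCL8, CCL5 and CCL20) and CXCL13 lower, where 15.1% of all tested genes were called (8.39% higher and 6.69% lower). CXCL8 was 44.01-fold [36.5 to 53.5] and CXCL1 44.04-fold [25.6 to 83.1] higher than in untreated cells. CCL20 was 27.8-fold [10.6 to 103] and CXCL3 13.7-fold [8.30 to 24.3] higher. CCL5 and CXCL2, the highest 2 of the genes called higher in untreated cells per length, had the smallest differences, 4.12-fold [3.77 to 4.50] and 3.22-fold [2.60 to 4.04]. CXCL13 was 28.1-fold [13.9 to 66.2] lower. CCL2 was not called at 1.51 [-0.80 to 3.82] on the log2 scale.

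For the combination against untreated cells, all 8 tested genes were called, 7 higher and CXCL13 lower, where 23.5% of all tested genes were called (12.9% higher and 10.5% lower). The ratio of CCL2 was 113 [19.9 to 4489], a wide interval because untreated cells had 1 read. CXCL1 was 83.8-fold [48.8 to 158], CXCL8 40.9-fold [33.9 to 49.7] and CCL20 22.1-fold [8.36 to 82.6] higher. CXCL3 was 14.0-fold [8.48 to 24.9], CCL5 4.71-fold [4.32 to 5.15] and CXCL2 3.83-fold [3.08 to 4.79] higher. For CXCL13, with 3 reads in the combination, the ratio was 64.4 [21.7 to 316] in favour of untreated cells. The median log2 ratio of the 8 genes was 3.96, against 0.05 over all tested genes, and it was 2.87 against 0.06 for indisulam and 0.65 against -0.02 for palbociclib.

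The combination was also set against each single drug. Against palbociclib, 7 genes were called higher and CXCL13 lower, where 16.9% of all tested genes were called (9.56% higher and 7.38% lower). CXCL1 was 38.0-fold [26.3 to 56.9] higher, and CCL20, which had 2 reads with palbociclib, had a ratio of 44.6 [12.0 to 374]. CXCL13 had a ratio of 101 [34.2 to 493] in favour of palbociclib, from 268 reads against 3. These values share the combination library with those against untreated cells and are not separate evidence.

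Against indisulam alone, CCL2 was the only one of the 8 genes called, where 8.19% of all tested genes were called (5.04% higher and 3.15% lower). It was 25.0-fold [11.2 to 69.4] higher in the combination, from 6 reads to 129. CXCL1 was 1.90-fold [1.74 to 2.09] higher, a log2 ratio of 0.93 that fell short of the call but was past 3 times its noise bound of 0.26. CXCL2 (0.25), CXCL3 (0.03), CXCL8 (-0.11) and CCL5 (0.19) had log2 ratios within their noise bounds. CCL20 had a ratio of -0.33 [-0.69 to 0.03], and CXCL13, with 8 reads against 3, -0.97 [-2.66 to 0.72].

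**Figure D4:**
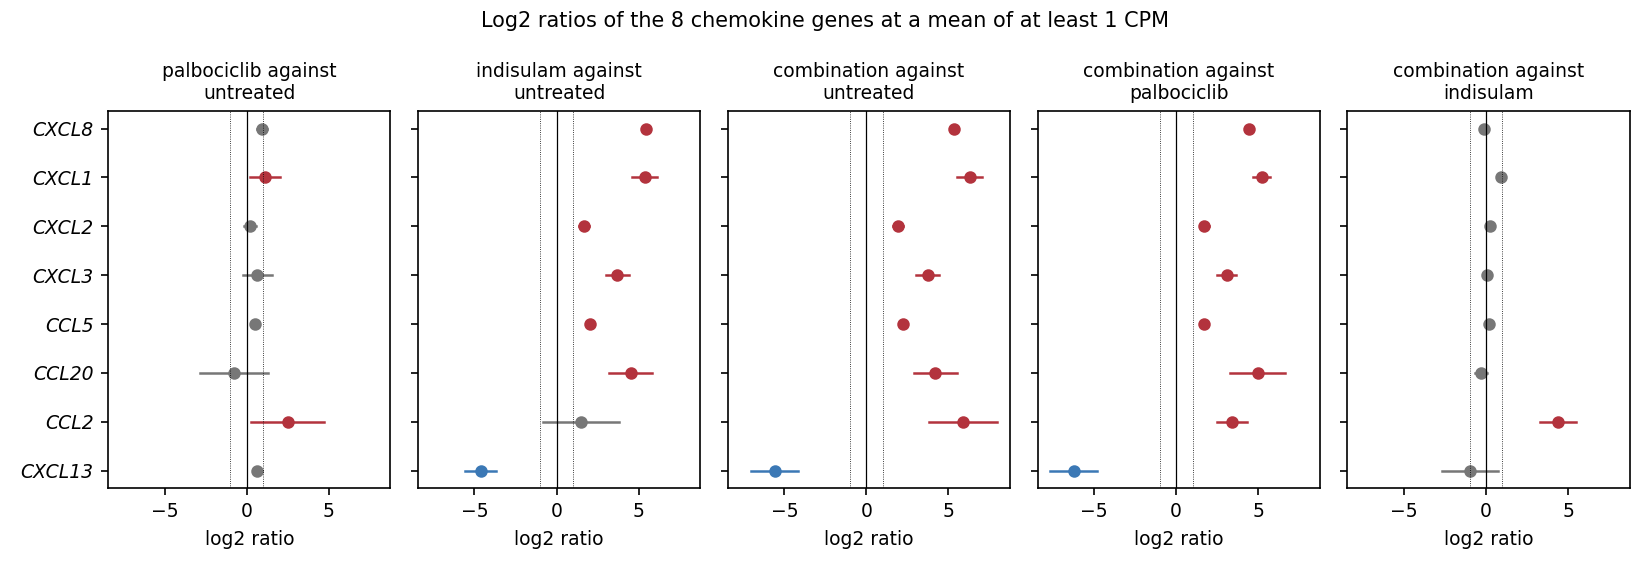
Each panel is a comparison of 2 libraries, with the log2 ratio on the x axis, 95% counting intervals as bars and dotted lines at a 2-fold difference; red points were called higher, blue lower and grey not called. In the 3 middle panels all points but CXCL13 lie to the right of 0, and in the last panel only CCL2 (4.396) is called.

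The departure from additivity, the log2 ratio of the combination minus the sum of the single-drug ratios, was called for CXCL8 alone among the 8 genes, where 7.77% of all tested genes were called (3.93% higher and 3.84% lower). It was -1.03 [-1.37 to -0.70], with a spread over genes of 0.40 above 100 CPM and 0.52 at 5 to 20 CPM, the level of CXCL8 in the libraries without indisulam. CXCL8 was higher with palbociclib in the absence of indisulam (9.0 to 17.2 CPM) and not in its presence (396 to 368 CPM). CCL2 had a departure of 1.88 [-0.59 to 4.36] and CXCL13 of -1.62 [-3.33 to 0.09], both large but with intervals that included 0. CXCL1 was near additive at -0.16 [-1.09 to 0.76] and so was CXCL2 at 0.04 [-0.38 to 0.47].

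For each locus the nearest tested genes, 3 on either side, were set beside the members, in the combination against untreated cells. Of all tested genes, 23.5% were called in that comparison (12.9% higher and 10.5% lower). On the near side of the ELR cluster RASSF6 had 5.42, 4.25, 2.81 and 2.09 CPM and was called lower in the combination. COX18 and ANKRD17 on that side were not called. On the far side the growth factor genes EREG, at 19.99, 15.8, 83.5 and 90.9 CPM, and AREG, at 2.87, 1.34, 9.93 and 14.1 CPM, were called higher, while MTHFD2L between them and the cluster was not. Next to CXCL13, none of SEPTIN11, CCNI, CCNG2, CNOT6L and MRPL1 was called in the combination, and ANXA3 was called higher. Around CCL20, SLC19A3 (log2 ratio 1.17), DAW1 (2.19) and DNER (2.86) were called higher and MFF, AGFG1 and PID1 were not called. Around CCL2, TMEM98 was called higher (1.25) and CCT6B lower (-1.32), and the other 4 were not called. Around CCL5, MMP28 (-3.58) and RDM1 (-1.80) were called lower and RASL10B (1.14) and the chemokine gene CCL3 (6.02) higher. TAF15 and TBC1D3B there were not called. CCL5 lies within the long noncoding RNA gene ENSG00000270240 on the opposite strand, which had 0, 3, 45 and 86 reads. Whether strand was used in counting was not given, and without it the reads of this pair cannot be told apart.

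CXCL1, CXCL2 and CXCL3 are near copies, and reads that fit more than 1 place were not counted. Their coding sequences were 93.5% identical for CXCL1 and CXCL2, 94.4% for CXCL2 and CXCL3 and 90.8% for CXCL1 and CXCL3. Of all 65-base stretches of their main transcripts, 1.44% in CXCL1, 4.66% in CXCL2 and 3.26% in CXCL3 also occurred in another gene. CCL5 had 11.3% of such stretches, shared with transcripts of many other genes, and CXCL6, CXCL8, CCL2, CCL20 and CXCL13 had none. Reads at more than 1 place were between 6.46% and 6.84% of the reads in each library, and their part in these levels was not tested.

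The tested ligands, receptors and regulators of the pathway were counted from lists, with the combination against untreated cells as the comparison. The lists were chosen with earlier results of these data known, so their counts and medians are a description. Of 36 other chemokine genes, 25 had no more than 3 reads in any library and 6 were tested, of which 4 were called higher and none lower (median log2 4.25). CXCL11, a ligand of CXCR3, had 0.319, 1.26, 9.87 and 13.9 CPM and CX3CL1, the fractalkine gene, 0.159, 1.42, 6.88 and 7.52 CPM. CCL3 and CCL26 were called higher too, CCL3 from 0 reads to 65, at least 18.9-fold over the floor of 3 reads and with an exact lower limit of 15.0-fold. All 4 called genes were near the floor in untreated cells and reached the mean of 1 CPM only through the libraries in which they were high. The filter therefore favoured calls of higher and a high median in this list. CXCL12, the stromal ligand of CXCR4, was not called there at 27.2, 93.4, 18.0 and 34.1 CPM, and was called higher with palbociclib alone.

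Of 23 receptor genes, 5 were tested, of which 3 were called higher (CCR1, ACKR3 and ACKR4) and 1 lower (median log2 1.98). The lower one was ACKR1, an atypical receptor that binds inflammatory chemokines without classical signalling, at 127, 150, 61.3 and 32.2 CPM. ACKR3, the scavenger of CXCL12, had 2.23, 6.22, 3.83 and 13.6 CPM. Of 26 tested genes from the IL-1, TNF and Toll-like receptors to NF-κB, 7 were called higher and 2 lower (median log2 0.48). Among the 7 were the cytokine genes IL1A, at 1.12, 0.709, 24.1 and 24.5 CPM, and IL1B, at 1.83, 1.02, 26.0 and 40.9 CPM. TNFAIP3, an NF-κB target that limits the same pathway, had 22.7, 40.1, 156 and 182 CPM, and TLR2 differed by 1.43 on the log2 scale.

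Of 10 tested genes of the lymphotoxin and noncanonical NF-κB pathway, known for its role upstream of CXCL13 in lymphoid tissue, 2 were called higher (BIRC3 and TRAF3) and none lower (median log2 0.37). Of 12 AP-1 and C/EBP genes, 2 were called higher (ATF3 and FOSL1) and 4 lower (median log2 -0.33). Among the 4 lower, FOS had 190, 208, 59.7 and 16.4 CPM and FOSB 29.5, 64.1, 11.8 and 4.46 CPM. Of 10 regulators of mRNA decay, ZC3H12A, a nuclease that cuts cytokine mRNA, was called higher and ZFP36 and ZFP36L2, which bind AU-rich elements, were called lower (median log2 0.07). Of 9 genes of the glucocorticoid receptor and its targets, TSC22D3 was called lower at 1618, 334, 386 and 116 CPM, FKBP5 was called lower and SGK1 higher (median log2 -0.64). Of 9 tested genes for other secreted cytokines, 7 were called higher and none lower (median log2 4.09), with IL6 at 1.83, 4.57, 28.3 and 36.8 CPM, CSF2 at a ratio of 776 [139 to 30703] from 1 read in untreated cells, and IL24 and IL33 from 2 reads each. ACKR4 of the receptors and CSF2, IL24 and IL33 of the cytokines were also near 0 reads in untreated cells. The filter on mean level thus favoured calls of higher there too. Between the combination and untreated cells 12.9% of all tested genes were called higher and 10.5% lower.

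**Figure D5:**
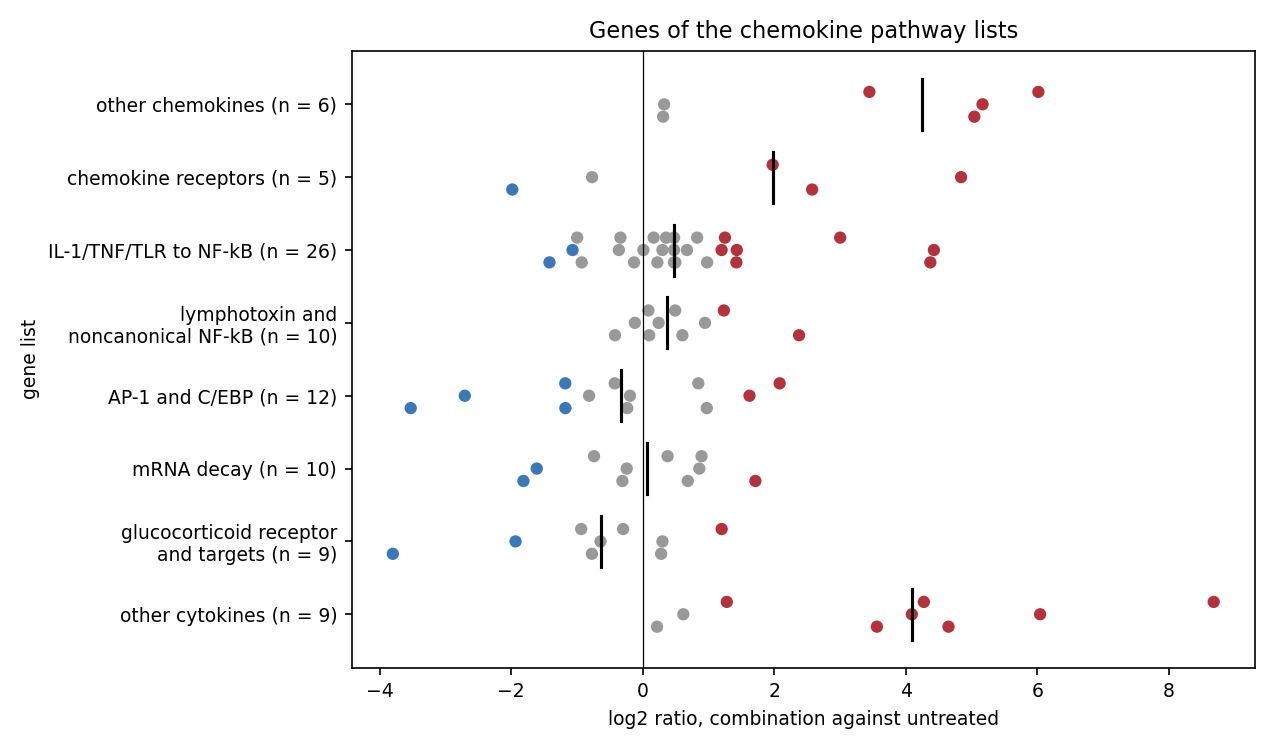
Each point is a tested gene of 1 of 8 pathway lists, with its log2 ratio of the combination to untreated cells on the x axis; red points were called higher, blue lower and grey not called, and the black bar is the list median. The medians of the other chemokines (4.25) and other cytokines (4.09) lie far to the right of those of the NF-κB, AP-1, mRNA decay and glucocorticoid lists, which lie between -0.64 and 0.48. In the chemokine and cytokine lists, genes near 0 reads in untreated cells were tested only where they were high in other libraries.

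The genes whose pattern over the 4 libraries was most like the mean of CXCL1, CXCL2, CXCL3 and CXCL8, by Euclidean distance of centred log2 values among 11370 genes, were TMEM178B (distance 0.435), ENSG00000236453, IL6 (0.560), CYP1A1 and HDAC9. TMEM178B had 1.67, 4.25, 32.3 and 43.4 CPM. For CXCL13 the nearest genes were SERPINF1 (distance 1.15), MLIP, LSP1, FER1L4 and SELENOP. SERPINF1, which encodes a secreted serpin, had 48.9, 79.1, 2.93 and 2.65 CPM, and like CXCL13 its level was highest with palbociclib and lowest in the 2 libraries with indisulam. With 4 libraries such a likeness is a description of these libraries.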

How the data were processed

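The authors deposited raw counts of reads per Ensembl gene, not normalized, 1 table per library. The submitters' processing notes name TopHat2 (2.1), HTSeq and GRCh38. Strand setting and annotation release are not given in the sources used here. The labels name Trizol for RNA extraction and the study's methods columns, and libraries were stranded and poly(A)-selected. Tallies of reads in no gene, in several genes or at several places were kept out of library totals.

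Groups were taken from the treatment label. Counts were scaled by total gene counts, as the study did, and log2 ratios used a pseudocount of 1. Of 60279 genes, 14269 with a mean of at least 1 CPM were tested. A call needed a ratio of at least 2-fold and a 95% Poisson interval that excluded 1; the script was tested on simulated data. A fold is the ratio of CPM with an exact conditional binomial interval, a CPM has an exact Poisson interval and a share a Clopper-Pearson interval. Without molecular identifiers, reads cannot be taken as independent molecules, so intervals and the floor of 3 counts cover counting error only. The members and lists were chosen with earlier results of these data known. Named were all members, their receptors (1 receptor and 1 marker are not reported here), up to 4 called genes per list with the largest ratio in the combination against untreated cells, and the 5 genes nearest in pattern at 5 CPM or more; neighbouring genes, CXCL12, PF4, PF4V1 and PPBP were named after their values were seen. Positions and exon lengths are from GENCODE release 44, counted from 1, and promoters from RefSeq on GRCh38.p14. Python 3.11.15, SciPy 1.17.1, Biopython 1.88 and edgeR 4.0.16 (alternative scaling factors) were used. Alternatives were other scalings, pseudocounts, filters, fold thresholds and exact intervals.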

Additional observations from a re-analysis of the deposited data

Results flagged for a closer look

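The effect of palbociclib on CXCL8 had a log2 ratio of 0.93 without indisulam and -0.11 with it, so the single libraries pointed in opposite directions in the presence and absence of the other drug. The second value was within the noise bound of 0.28. Their difference is the departure from additivity of -1.03 [-1.37 to -0.70], which was called on counting error alone, and with 1 library per condition the difference was not tested against the spread between replicates.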

How the results depend on the processing

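Of 59 counts of called chemokine genes under the alternatives, 51 were within 1.5 times the reported count and 8 were not, and all 240 log2 ratios of the 8 genes under 5 alternatives of scaling and pseudocount kept their direction or moved by less than their counting error. For palbociclib against untreated cells, where 2 genes were called, a pseudocount of 5 gave 0 calls, a filter at 5 CPM gave 1, a threshold of 1.5-fold gave 4 and one of 4-fold gave 1. For the combination against indisulam, where CCL2 was called, the filter at 5 CPM removed that gene and gave 0 and a threshold of 1.5-fold gave 2. For the departure from additivity, where CXCL8 was called, a pseudocount of 5 gave 2, with CCL2 called higher at 2.31 on the log2 scale, and a threshold of 4-fold gave 0. The counts for indisulam or the combination against untreated cells and for the combination against palbociclib stayed within 1.5 times under every alternative run. The log2 ratio of CCL5 to CXCL8 per length in the combination was 0.22 with all exons and reversed to -0.37 with the main transcript, an alternative chosen after seeing the data. No paired analysis was possible because each condition has 1 library. Depth limits CXCL5 and CXCL6, at 0 to 2 reads, and the low side of CCL2, CCL20 and CXCL13, where 1 to 8 reads leave wide intervals.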
